A study of Sus scrofa with 24 samples.

Results

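The interaction of cyclic stretch with 5HT plus Fluox was computed in pieces of porcine aortic valve leaflet, as the stretch change in pieces that received both agents minus the stretch change in pieces that received neither. It used all 24 arrays of the series, 6 in each of 4 groups. It was computed for 23999 probe sets, which are the 24123 on the array without its 124 controls. A probe set is a group of short oligonucleotides that together read 1 transcript. Exactly 1 gene symbol was attached to 10069 of them (6765 different symbols), 198 carried several and 13732 carried none.

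The pieces measured 15 by 10 mm and came from cusps of domestic pigs of 12 to 24 months. They were cultured for 24 h at 37 C, all in the same medium with serum (10%) and ascorbic acid (50 mg/l). Of the 4 groups, 1 was static without agents, 1 was stretched without agents, 1 was static with 5HT plus Fluox and 1 was stretched with 5HT plus Fluox. Static pieces were incubated without load, and stretched pieces hung by sutured loops in a tensile bioreactor. 5HT is serotonin. The labels do not spell out Fluox, and the doses of both agents were not given in the sources used here. No group received a single agent, so every value below belongs to the pair. Leaflets of 1 valve could be assigned to several conditions, and which pieces came from the same pig is not stated, so the p-values measure the spread between pieces.

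Leaflets are built by interstitial cells, fibroblast-like cells that make collagens, elastic fibres and proteoglycans and can take up contractile genes, under a sheet of endothelial cells. Serotonin acts on receptors of the HTR family, is carried into cells by the transporter SLC6A4, and is broken down by the monoamine oxidases MAOA and MAOB. Fluoxetine, a drug that is often shortened in this way, blocks SLC6A4, and the receptor HTR2B is known for its link to drug-induced valve disease.

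Control probe sets differed between stretched and static arrays, with and without the agents. The array reads both ends of GAPDH and EF1A transcripts, and a wide 3′ to 5′ difference marks RNA that is degraded or incompletely copied. Without agents it averaged 0.77 ± 0.14 log2 (SD, n = 6) over static pieces and 2.09 ± 0.71 over stretched ones. With the agents it was 0.82 ± 0.11 in static and 2.64 ± 1.07 in stretched pieces. Stretched array 1 without agents, at 0.98, lay near the static arrays, and stretched array 5 with agents, at 4.66, lay above all others. The interaction of this measure was 0.50 log2 (two-sided exact permutation test, agent labels permuted within static and within stretched arrays, p = 0.411, adjusted p = 0.537 over 7 array measures), and without stretched array 5 with agents it was 0.10. VIM, on the list of fibroblast markers, had group means between 11.94 and 14.26 log2. CDH5, a defining endothelial marker, was at 7.62 and 8.20 in static and at 3.72 and 3.50 in stretched pieces, without and with agents. Other endothelial markers changed less, since the 18 measured ones had median stretch changes of -1.01 without and -0.57 with agents. In bulk tissue, fewer cells of a type and less RNA per cell cannot be told apart.

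**Figure D1:**
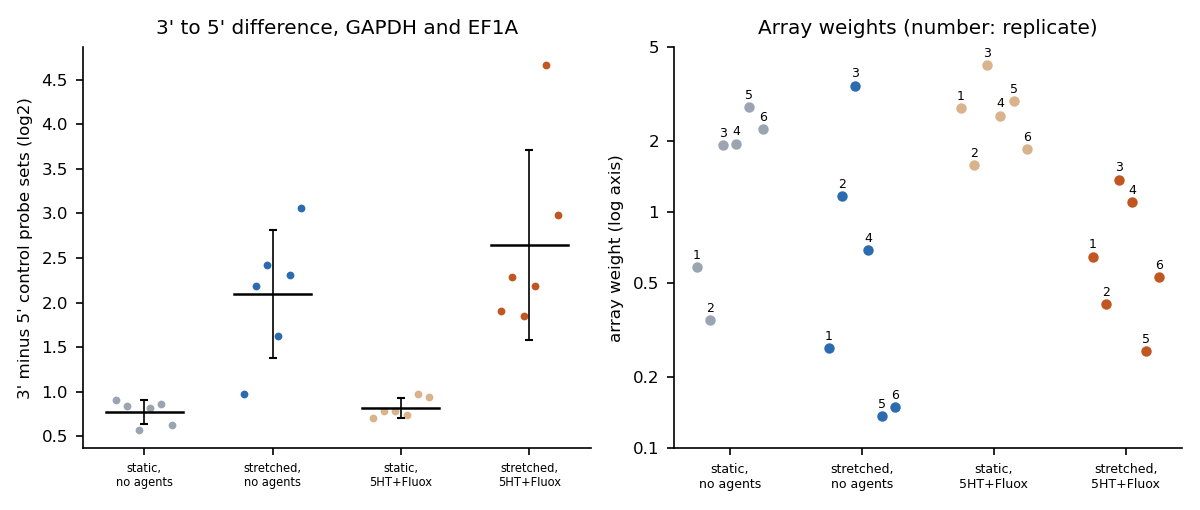
Left, 3′ minus 5′ difference of the GAPDH and EF1A control probe sets (log2) of each array, with the mean and SD of each group of 6. Right, the weight that limma's arrayWeights gave each array, on a log axis, with the replicate number above each point. Stretched array 5 with agents lies highest on the left at 4.66, and stretched arrays 5 and 6 without agents have the lowest weights, 0.137 and 0.149.

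The first question was whether stretch changed any transcript differently when the agents were present. With all arrays weighted equally, no probe set passed. limma called 0 of 23999 interactions at an adjusted p under 0.05 (0%), the smallest adjusted p was 0.54, and none passed at 0.10 either. At an unadjusted p under 0.05 there were 1791 (7.46%), 1155 of them above 0 (4.81%) and 636 below (2.65%). An interaction above 0 means that the stretched level stood higher, relative to static tissue, with the agents than without. By contrast, limma called 12600 probe sets for stretch without agents (52.5%) and 12527 for stretch with agents (52.2%). These contrasts share arrays with the interaction, so they are given only as each gene's own values.

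The precision differed between genes. The median interaction over all probe sets was -0.02 log2, and 3358 of the 6765 symbols (49.6%) lay above 0. The half-width of the 95% confidence interval had a median of 0.75 log2, with quartiles of 0.42 and 1.07. The interval lay within -1 to 1 for 11206 probe sets (46.7%), but for only 3256 (24.5%) of the 13287 with a mean of at least 5 log2 in the highest group. For most well-expressed transcripts the interval thus reached beyond 1 log2 on at least 1 side. The point estimate was at least 1 for 885 probe sets and at most -1 for 780.

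The plot of both stretch changes shows the genes of smallest unadjusted p on either side of the diagonal. Stretch was called in both settings but in opposite directions for 2 probe sets, neither with a symbol, which were picked out after their values were seen. The first fell by 0.62 log2 without agents and rose by 0.58 with them. The second rose by 0.45 without agents and fell by 0.45 with them. Neither interaction passed (limma, adjusted p = 0.632 for each).

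**Figure D2:**
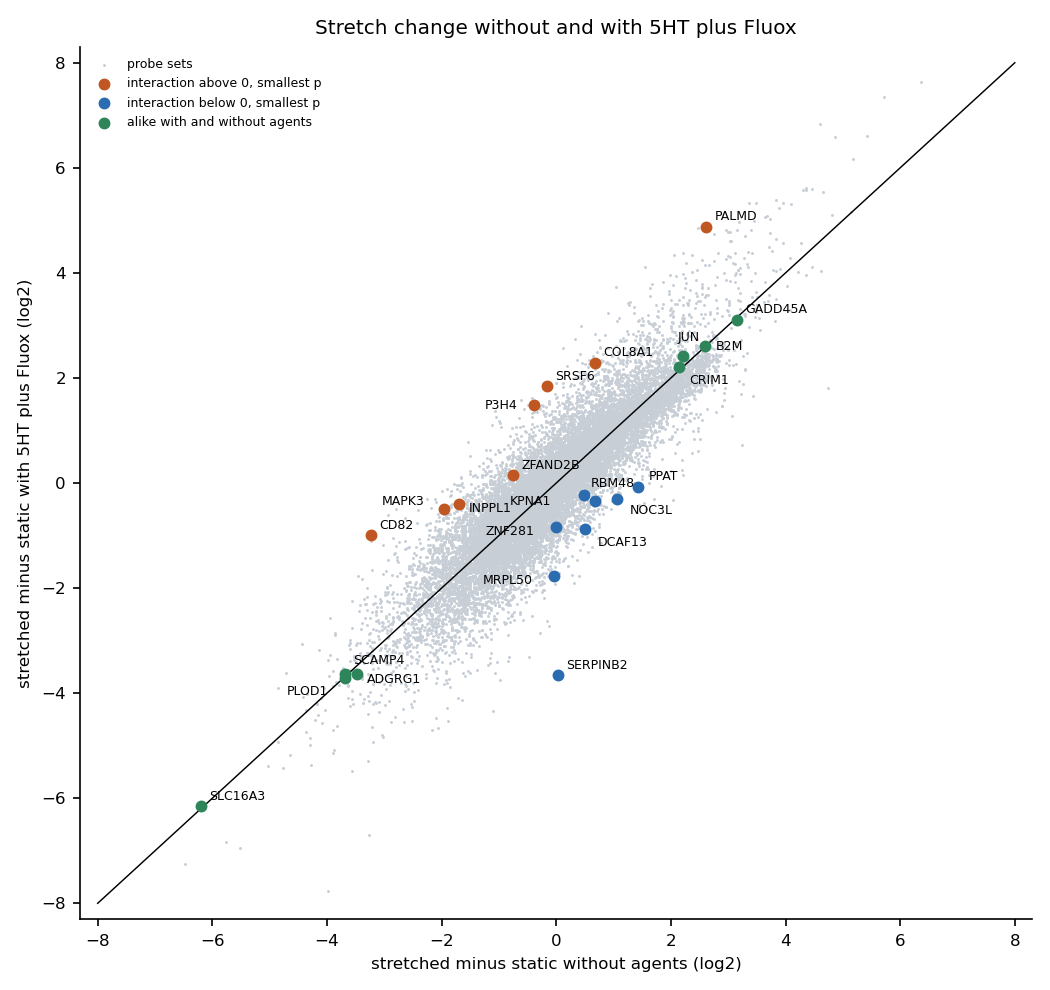
Each point is 1 probe set, with stretched minus static without agents (log2) on the horizontal axis and the same with 5HT plus Fluox on the vertical axis. On the diagonal line both changes are equal. CD82 and PALMD lie above it, SERPINB2 and MRPL50 below it, and GADD45A and SLC16A3 on it.

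Of genes with an interaction above 0 and a mean of at least 5 log2 in the highest group, 8 are described by their smallest unadjusted p. None of them passed the adjusted test. In CD82, a tetraspanin of the cell surface, the lowest, median and highest array stood at 6.84, 7.88 and 8.52 log2 in static and 3.08, 4.73 and 5.43 in stretched tissue without agents. With agents they stood at 6.09, 6.31 and 7.13 in static and 4.84, 5.31 and 6.32 in stretched tissue. Static and stretched arrays did not overlap without agents, and with agents they did. CD82 fell by 3.24 with stretch alone and by 0.99 with stretch plus agents, which gives an interaction of 2.25 (SE 0.53, limma, unadjusted p = 0.000338, adjusted p = 0.54). The second CD82 probe set, which was dimmer, gave 1.69 (unadjusted p = 0.000307).

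PALMD, a cytosolic protein whose gene lies at a known risk locus of human aortic stenosis, was high in stretched tissue in both settings. Its arrays ranged from 4.60 to 5.71 log2 in static and from 6.75 to 9.53 in stretched tissue without agents, with medians of 5.00 and 7.35. With agents they ranged from 3.73 to 5.87 in static and from 8.82 to 10.13 in stretched tissue, with medians of 4.57 and 9.48. The 2 stretched groups overlapped, since the highest array without agents exceeded 3 of the 6 with agents. PALMD rose by 2.62 without and by 4.88 with agents, an interaction of 2.26 (SE 0.58, limma, adjusted p = 0.632).

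In another 3 genes the probe set of smallest p was called for stretch with the agents and not for stretch alone. P3H4, a helper of collagen modification in the endoplasmic reticulum, had medians of 6.35 and 6.06 in static and stretched tissue without agents, and of 5.93 and 7.14 with them. Its 6 stretched arrays with agents (6.62 to 8.38) all lay above the static arrays with agents (5.31 to 6.42), whereas both groups overlapped without agents (5.90 to 7.22 and 5.10 to 6.98). The interaction was 1.87 (SE 0.47). COL8A1, a short-chain collagen, had group means of 4.10, 4.78, 3.73 and 6.02 in static, stretched, static with agents and stretched with agents, and an interaction of 1.62 (SE 0.43). Its other 3 probe sets gave 0.30, 0.29 and 1.19, and in these COL8A1 rose with stretch alone too, by 1.36, 1.68 and 1.17. SRSF6, a splicing factor, gave 2.00 (SE 0.47) from a probe set with means of 6.69, 6.53, 6.01 and 7.85. The probe sets of SRSF6 disagreed, since 4 brighter ones gave between -0.82 and -0.52 and another brighter one gave 0.88, so no direction is given for this gene.

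The remaining 3 genes fell with stretch alone and were not called for stretch with the agents. MAPK3, the kinase ERK1, fell by 1.96 without agents, from a median of 7.04 to 5.13. With agents its medians were 6.76 and 6.31, and the interaction was 1.47 (SE 0.39). INPPL1, a lipid phosphatase of insulin signalling, fell by 1.70 without agents, differed by -0.40 with them, and had an interaction of 1.30 (SE 0.32). ZFAND2B, a proteasome-associated protein, fell by 0.75 without agents and differed by 0.15 with them, an interaction of 0.90 (SE 0.24). limma's adjusted p was 0.632 for each of these 3.

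**Figure D3:**
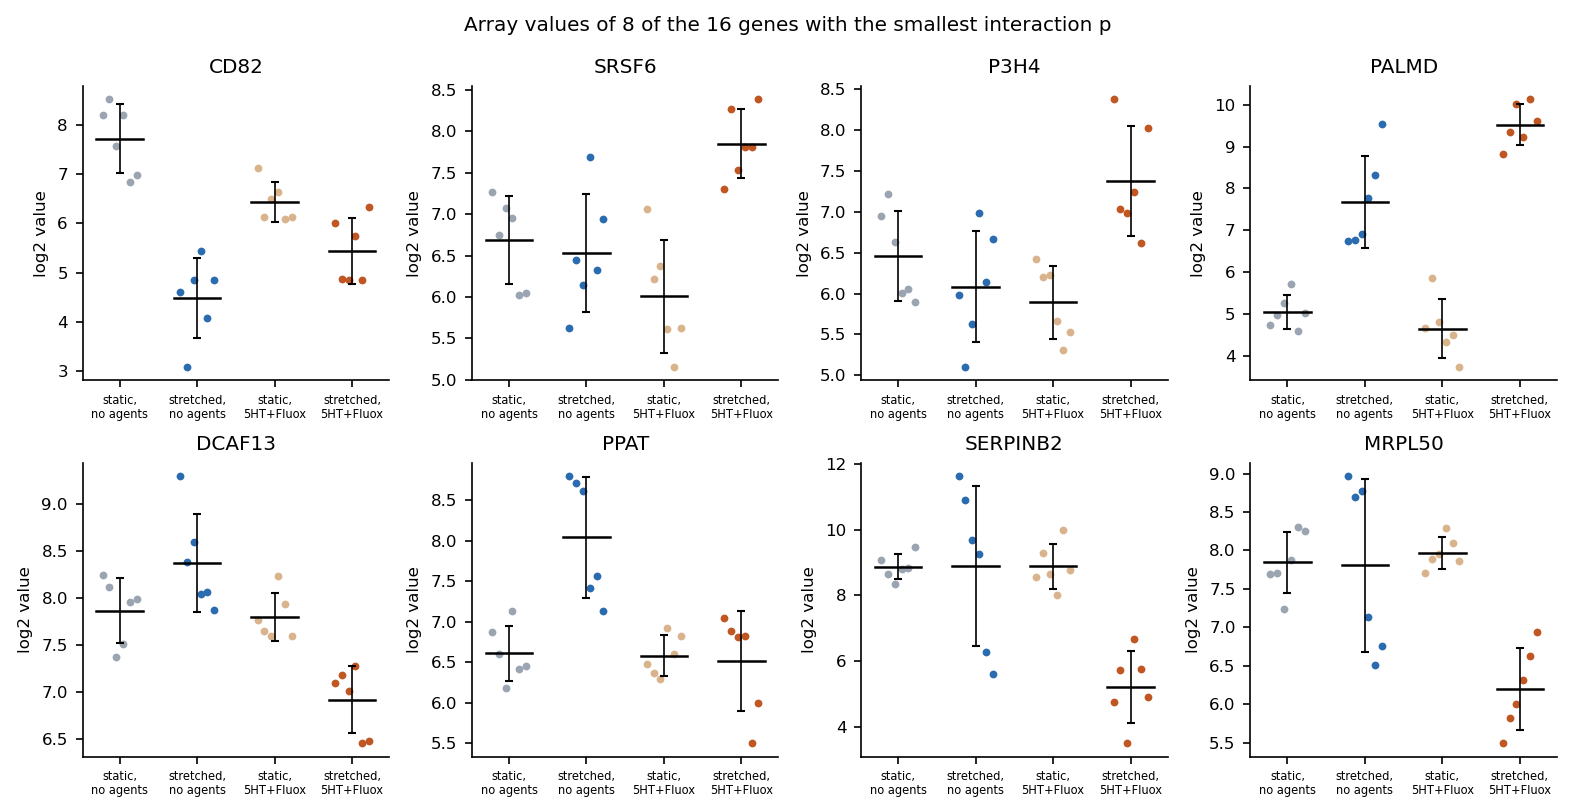
Log2 values of each array for 4 genes with an interaction above 0 (top) and 4 below 0 (bottom), with the mean and SD of each group of 6. Arrays 1 to 6 run from left to right within a group. All 6 stretched arrays with agents lie below all 6 without in DCAF13 and PPAT, while SERPINB2 and MRPL50 spread widely in stretched tissue without agents.

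On the other side, 8 genes with an interaction below 0 were described by the same rule, among them DCAF13 and NOC3L of ribosome assembly and PPAT of purine synthesis. None passed the adjusted test. DCAF13, a component of the complex that processes ribosomal RNA, stood at 7.38, 7.97 and 8.24 log2 (lowest, median, highest) in static and 7.87, 8.22 and 9.29 in stretched tissue without agents. With agents it stood at 7.60, 7.71 and 8.24 in static and 6.46, 7.06 and 7.28 in stretched tissue. All 6 stretched arrays with agents were below all 6 without. DCAF13 fell by 0.88 with stretch plus agents and differed by 0.51 with stretch alone, an interaction of -1.39 (SE 0.30, limma, unadjusted p = 0.000163, adjusted p = 0.54). It was also among the 14 probe sets (0.0583%) called between stretched tissue with and without agents, where it fell by 1.45.

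PPAT, the enzyme of the first committed step of purine synthesis, rose by 1.43 with stretch alone. Its arrays ranged from 6.18 to 7.13 in static and from 7.13 to 8.80 in stretched tissue without agents, and from 6.29 to 6.92 and 5.49 to 7.05 with them. All 6 stretched arrays with agents lay below those without, and with agents static and stretched arrays overlapped. The interaction was -1.50 (SE 0.42). NOC3L, a nucleolar factor of ribosome assembly, rose by 1.06 with stretch alone and had an interaction of -1.37 (SE 0.39), with group means of 6.30, 7.36, 6.37 and 6.06. KPNA1, a nuclear import receptor, rose by 0.49 with stretch alone and had an interaction of -0.71 (SE 0.20), and its other 3 probe sets gave -0.83 to -0.76. The KPNA1 probe sets disagreed on stretch itself, since 2 dimmer ones differed by -0.45 and -0.32 with stretch alone and fell by 1.21 and by 1.14 with stretch plus agents. RBM48, a factor of minor-intron splicing, rose by 0.67 with stretch alone and had an interaction of -1.02 (SE 0.29).

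The probe sets chosen for the other 3 genes fell with stretch plus agents and were not called for stretch alone. SERPINB2, an inhibitor of plasminogen activators, stood at 8.35, 8.82 and 9.46 in static tissue and at 5.63, 9.48 and 11.63 in stretched tissue without agents. With agents it stood at 8.01, 8.71 and 9.99 in static and 3.52, 5.33 and 6.69 in stretched tissue. Static and stretched arrays with agents did not overlap, while stretched arrays 5 and 6 without agents lay within the range of those with agents. SERPINB2 fell by 3.65 with stretch plus agents, and the interaction was -3.68 (95% interval -5.97 to -1.40, limma, adjusted p = 0.632). MRPL50, a protein of the mitochondrial ribosome, fell by 1.77 with stretch plus agents and had an interaction of -1.73 (SE 0.52). Its stretched arrays ranged from 6.52 to 8.97 without and from 5.49 to 6.94 with agents. ZNF281, a zinc finger repressor, fell by 0.83 with stretch plus agents, had an interaction of -0.83 (SE 0.25), and gave between -0.71 and -0.26 in its other 5 probe sets. In 2 of these ZNF281 also fell with stretch alone, by 1.60 and by 1.00.

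The interval plot sets these 16 estimates beside a fit in which limma weighted each array by how closely it followed its group over all probe sets. With array weights 2174 interactions were called (9.06%), 800 above 0 (3.33%) and 1374 below (5.73%). The weights ran from 0.137 to 4.19. This count rested on single arrays. It was 35 without stretched array 3 without agents, whose weight was 3.43, 886 without stretched array 2 without agents, 1087 without stretched array 3 with agents, and up to 3009 when another array was left out. All 16 genes had the same direction under the weights and passed there, with CD82 at 1.85 (adjusted p = 0.0304) and DCAF13 at -1.49 (adjusted p = 0.00198), a call that depends on those weights.

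**Figure D4:**
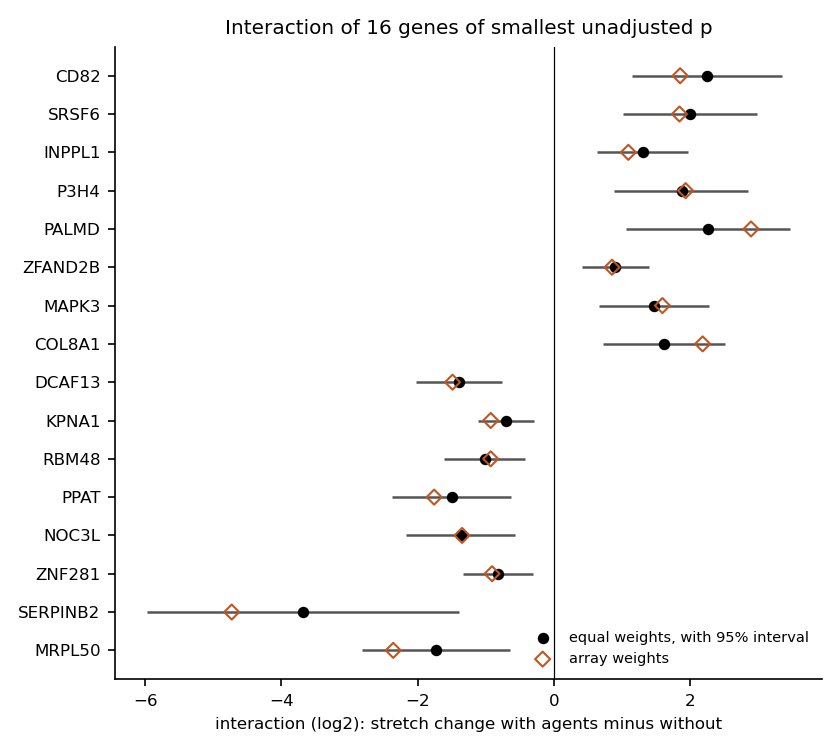
Interaction (log2) of 16 genes, 8 above and 8 below 0. Black points and lines are the estimates with equal weights and their 95% intervals, and open diamonds are the estimates with array weights. SERPINB2 has the widest interval, -5.97 to -1.40.

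Gene groups were described by 1 probe set per symbol, the one of highest mean, over 37 lists. Over all 6765 symbols the median interaction was 0, and 6.99% had an unadjusted p under 0.05 above 0 and 3.06% below 0. As with single genes, 0 members of any list passed the adjusted test.

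Ribosome biogenesis factors and RNA polymerase subunits were the list with the lowest median, -0.99 log2. Of 43 measured members 37 lay below 0, and at an unadjusted p under 0.05 there were 10 below and 1 above. Beside DCAF13 these were POLR1B, a subunit of RNA polymerase I, at -1.12 (SE 0.36), LTV1, an assembly factor of the small subunit, at -1.59 (SE 0.51), and RRP15, a nucleolar processing factor, at -1.22 (SE 0.41). NOP58 of the box C/D snoRNA complex gave -1.29, the nucleolar GTPase GNL3 -1.53, WDR75 -1.28, RRS1 -1.74, BYSL -1.63 and NIP7 -1.78. POLR3K, a subunit of RNA polymerase III, was the member above 0, at 0.53.

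The mean level of this list differed between arrays in stretched tissue without agents. It was 9.14, 8.72, 8.47, 8.05, 6.83 and 6.48 log2 in stretched arrays 1 to 6 without agents. With agents the stretched arrays lay between 6.49 and 7.29. Static arrays lay between 7.53 and 8.23 without and between 7.73 and 8.14 with agents. Arrays 1 to 4 of stretched tissue without agents were thus above every stretched array with agents, and arrays 5 and 6 were within or below their range. The list's median was -1.36 without stretched array 6 and -0.71 without stretched array 1, both without agents, and -0.67 when the 3′ to 5′ measure was a covariate. Array 1 also had the narrowest 3′ to 5′ difference of the stretched arrays and array 6 the widest of those without agents, and the part of RNA quality in this result was not tested further. Under array weights 31 members were called below 0 and 1 above, against 9.49% and 4.41% of all symbols.

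Cytosolic ribosomal proteins, the parts that these factors assemble, did not share that median. It was 0.05 over 58 members, 41 above and 17 below 0, with 2 below at an unadjusted p under 0.05. These were RPL26 at -0.84 and RPS15A at -0.90, both of them dim probe sets with group means under 5.

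Proteasome subunits had a median of -0.54, with 32 of 35 below 0. At an unadjusted p under 0.05 there were 2 below 0 (5.71%), beside 3.06% of all symbols. PSMD14, the deubiquitinating subunit of the lid, gave -0.56 (SE 0.22) and PSMA4 of the core ring -0.98 (SE 0.46). PSMA4 fell by 1.43 with stretch alone and by 2.41 with stretch plus agents. The median of the list was -0.28 without stretched array 1 without agents and -0.80 without stretched array 5 without agents, so its size depended on single arrays. Under array weights, where counts rested on single arrays, 15 of the 35 members were called, all below 0, beside 9.49% of all symbols.

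Genes of the unfolded protein and amino acid response had a median of -0.49, with 23 of 26 below 0. ASNS, asparagine synthetase, stood at 9.27, 9.66 and 9.91 in static and 9.58, 12.22 and 12.53 in stretched tissue without agents, and at 9.64, 10.09 and 10.40 and 8.44, 11.25 and 11.82 with agents. The lowest stretched array lay within the static range without agents and below it with agents. ASNS rose by 2.07 with stretch alone, and its interaction was -1.50 (SE 0.74, limma, adjusted p = 0.667). PSPH, of serine synthesis, rose by 2.34 without and by 1.18 with agents, an interaction of -1.17 (SE 0.59). VLDLR, a lipoprotein receptor on the same list, was the only member at an unadjusted p under 0.05, and it lay above 0 (0.88, SE 0.40). The list's median was -0.26 with the 3′ to 5′ covariate. Heat shock proteins gave a median of -0.33 with 22 of 27 below 0 (-0.14 with that covariate and -0.21 without stretched array 5 with agents). Below 0 were the chaperones HSPA4 at -0.84 and HSPD1 at -0.61, while the small heat shock protein HSPB6 gave 1.01. The other HSPA4 probe sets, which were dimmer, gave -0.84 and 0.05.

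**Figure D5:**
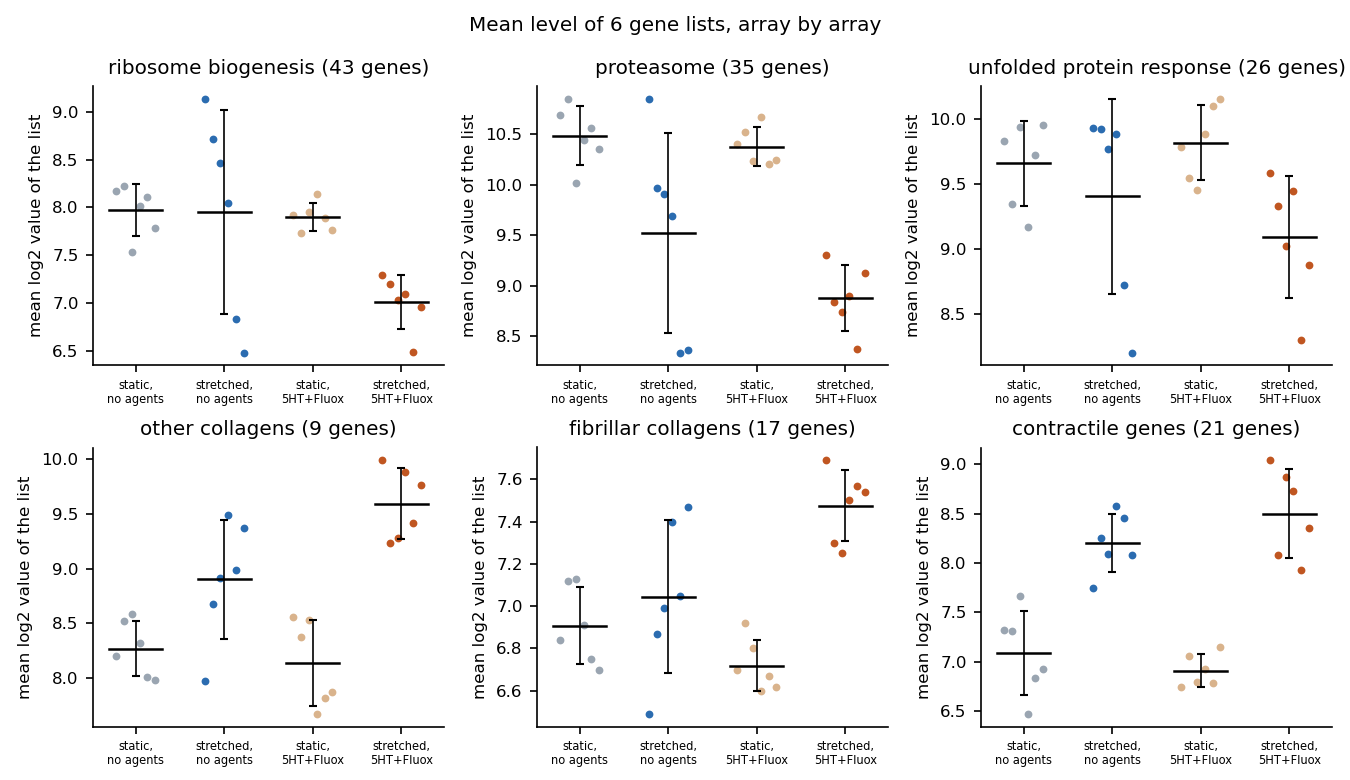
Mean log2 value of the measured members of 6 gene lists in each array, with the mean and SD of each group of 6. Arrays 1 to 6 run from left to right within a group. In ribosome biogenesis the stretched arrays without agents spread from 6.48 to 9.14, and in the collagens the highest means are those of stretched tissue with agents.

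Matrix genes lay on the other side of 0. All 9 measured members of the list of other collagens and basement membrane were above 0, with a median of 0.81, and 4 of them had an unadjusted p under 0.05. LAMC1, a laminin chain, gave 1.11 (SE 0.39), COL4A2 of the basement membrane 1.21 (SE 0.48), the microfibrillar COL6A3 0.90 (SE 0.38) and LAMB2 0.81 (SE 0.36). LAMC1 ranged from 9.63 to 10.34 in static and from 7.55 to 9.49 in stretched tissue without agents, without overlap. With agents its static arrays (9.43 to 10.25) overlapped with its stretched arrays (8.70 to 10.07). LAMC1 fell by 1.48 with stretch alone. Its dimmer probe sets gave smaller interactions of 0.55, 0.79 and 0.17, and differed by -0.67, -0.19 and -0.73 with stretch alone. With array weights the last of these interactions was -0.44.

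Fibrillar collagens and their processing enzymes gave a median of 0.58, with 14 of 17 above 0 and 4 at an unadjusted p under 0.05. FKBP10, a folding enzyme of collagen, stood at 7.32, 7.68 and 8.52 in static and 8.29, 9.04 and 9.34 in stretched tissue without agents, and at 7.03, 7.18 and 7.55 and 8.93, 9.57 and 10.35 with agents. The static and stretched arrays overlapped narrowly without agents and were apart with them. FKBP10 rose by 1.11 without and by 2.34 with agents, an interaction of 1.22 (SE 0.33, limma, adjusted p = 0.632). COL5A1, which sets fibril diameter, rose by 0.82 and by 1.70, an interaction of 0.88 (SE 0.26). LOXL1, a cross-linking enzyme of elastin, rose by 1.28 and by 3.44, an interaction of 2.15 (SE 0.67). P4HA2, a collagen prolyl hydroxylase, fell by 1.47 with stretch alone and gave 0.95 (SE 0.37).

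All 5 elastic fibre genes were above 0, with a median of 0.96. MFAP2, a microfibril protein, gave 1.68 but was dim, with group means of 4.17, 3.94, 3.25 and 4.71. Its static arrays without agents ranged from 3.06 to 5.90. The fibulins EFEMP2 and FBLN1 gave 0.96 and 1.05, and the fibrillin FBN1 gave 0.74. Of 13 proteoglycans 10 were above 0, with a median of 0.46, and BGN, biglycan, rose by 1.70 without and by 2.74 with agents (interaction 1.04, SE 0.33). Of 14 matricellular and secreted matrix genes 11 were above 0, with a median of 0.44, led by the tenascin TNXB at 1.53 (SE 0.51). The list of 19 fibroblast markers shares matrix genes such as TNXB and FBLN1 with these lists, so it is not independent of them. In it 18 lay above 0, with a median of 0.54, and 2, TNXB and TCF21, had an unadjusted p under 0.05. The mean level of the marker list ran from 7.59 to 8.83 in static and 8.50 to 9.76 in stretched tissue without agents, and from 7.68 to 8.18 and 9.33 to 9.87 with agents. The part of fibroblast content in the matrix values was not tested.

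Matrix-degrading enzymes and their inhibitors had a median of 0.01, with 11 of 22 on each side of 0. Their largest single value belonged to MMP1, the interstitial collagenase, which stood at 8.07, 11.40 and 11.94 in static and 2.31, 7.20 and 12.07 in stretched tissue without agents. With agents it stood at 7.39, 10.97 and 12.37 in static and 2.22, 2.48 and 3.05 in stretched tissue. Stretched arrays without agents covered nearly the whole scale, and all 6 with agents were at 3.05 or below. MMP1 fell by 3.99 with stretch alone and by 7.77 with stretch plus agents, an interaction of -3.77 (SE 1.78, limma, adjusted p = 0.662). Stretched values with agents lay near the lowest on the arrays, where differences cannot be read, so the sizes of that fall and of the interaction are limited by this floor. The inhibitor TIMP1 fell by 1.40 and by 2.44 (interaction -1.05, SE 0.37). PLAT, tissue plasminogen activator, gave -1.54 (SE 0.62), and the inhibitor TIMP3, which rose by 3.73 and by 4.76, gave 1.03 (SE 0.48).

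Contractile and myofibroblast genes gave a median of 0.63, with 18 of 21 above 0. CSRP1, a LIM protein of smooth muscle, rose by 1.51 without and by 2.59 with agents, an interaction of 1.08 (SE 0.43). ACTN1, an actin cross-linker, gave 0.60 (SE 0.24) and CALD1, caldesmon, 1.08 (SE 0.51). ACTA2, smooth muscle actin, had medians of 6.53, 8.73, 6.43 and 10.18 in static, stretched, static with agents and stretched with agents, with ranges that overlapped between both stretched groups (7.30 to 10.45 and 9.08 to 10.68). It rose by 2.26 and by 3.80, and the interaction was 1.54 with an interval of -0.47 to 3.54. DES, desmin, went the other way. Its stretched arrays ranged from 2.93 to 9.74 without and from 2.77 to 7.17 with agents while its highest static array, near that floor, was at 3.12, and its interaction was -2.93 (SE 1.27). A second, dim DES probe set gave 0.63.

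In the serotonin pathway HTR2A, HTR2B and MAOA rose with stretch in both settings, and no interaction passed. Of 12 measured members 5 lay above 0, with a median of -0.04. HTR2A, a receptor coupled to phospholipase C, stood at 3.24, 4.19 and 4.40 in static and 5.14, 6.08 and 6.78 in stretched tissue without agents, and at 3.81, 4.28 and 4.87 and 6.45, 6.69 and 6.95 with agents. Static and stretched arrays were apart in both settings, and both stretched groups overlapped. HTR2A rose by 1.99 without and by 2.39 with agents, an interaction of 0.40 with an interval of -0.27 to 1.06. HTR2B rose by 2.37 and by 2.08, from means of 6.28 and 6.65 to 8.64 and 8.73, and its interaction of -0.28 had an interval of -1.43 to 0.87. With array weights the HTR2B value was 0.30.

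SLC6A4, the serotonin transporter, was dim in all groups, with means between 2.74 and 2.98, and its interaction of -0.10 had an interval of -0.40 to 0.20. MAOA rose by 2.41 and by 2.87, an interaction of 0.46 with an interval of -0.37 to 1.29. MAOB was the only pathway member at an unadjusted p under 0.05. Its medians were 5.47 and 4.90 in static and stretched tissue without agents and 5.25 and 6.48 with them, and the stretched ranges overlapped (4.23 to 6.90 and 5.35 to 6.97). MAOB rose by 1.32 with stretch plus agents and differed by -0.21 with stretch alone, an interaction of 1.53 (SE 0.59, limma, adjusted p = 0.641).

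Among signalling genes the circadian clock list had a median of 0.62, with 6 of 7 above 0 and 3 at an unadjusted p under 0.05. The repressors CRY2 and PER1 gave 0.88 (SE 0.35) and 0.79 (SE 0.34), and the clock output factor NFIL3 gave 0.49 (SE 0.19). CRY2 rose by 1.19 without and by 2.07 with agents. Immediate-early genes gave a median of 0.25, with 16 of 22 above 0, and of 0.16 without stretched array 6 without agents and 0.42 without stretched array 5 with agents. In this list the flow-responsive factor KLF2, with means of 3.32, 3.70, 3.16 and 4.76, gave 1.22 (SE 0.37), the phosphatase DUSP1 gave 0.47 (SE 0.15) and IER2 gave 0.57 (SE 0.23).

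Growth factor genes went both ways. AREG, an EGF receptor ligand, rose by 3.22 without and by 1.69 with agents, an interaction of -1.53 (SE 0.51), and its stretched ranges overlapped (5.39 to 6.94 and 3.84 to 6.18). AGTR1, an angiotensin receptor, belongs to the list of G-protein signalling genes and not to the growth factors. It rose by 2.40 with stretch alone, from a median of 3.24 to 6.03, and had medians of 3.13 and 3.82 with agents. Its interaction was -1.57 (SE 0.59). The binding proteins IGFBP6 and IGFBP5 gave 2.05 (SE 0.75) and 1.89 (SE 0.83). The receptor FGFR1 gave 0.66 (SE 0.23) from a probe set that rose by 0.56 with stretch plus agents. limma's adjusted p was between 0.632 and 0.65 for these 5 genes, and 0.935 for the second FGFR1 probe set.

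Endothelial markers had a median of 0.04, with 9 of 18 above 0. ERG, an endothelial transcription factor, fell by 1.21 with stretch alone, from a median of 9.17 to 7.87, and stood at medians of 9.20 and 9.20 with agents. Its stretched arrays ranged from 7.14 to 9.03 without and from 8.73 to 9.48 with agents, a narrow overlap, and the interaction was 1.14 (SE 0.36). CD34, which valve fibroblasts also express, rose by 1.42 and by 3.08 (interaction 1.66, SE 0.67). The defining marker CDH5 gave -0.80 (SE 0.49) and ENG 0.62 (SE 0.33). Leukocyte markers had a median of 0.20 (0.04 without static array 2 without agents) with 17 of 24 above 0, and none reached an unadjusted p under 0.05.

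These further lists had medians between -0.21 and 0.18, and single arrays moved several of them. Interferon-induced genes gave -0.06 over 25 members, glycolysis and hypoxia -0.06 over 30, inflammatory genes -0.02 over 38, TGF-beta and BMP signalling 0.09 over 24, and cell cycle genes -0.13 over 31. The interferon median was -0.44 without stretched array 6 and 0.31 without stretched array 4, both without agents, and -0.71 with array weights, so it has no settled sign. Oxidative phosphorylation gave 0.18 with 31 of 45 above 0 (0.03 to 0.30 with 1 array left out), and sterol synthesis -0.21 with 16 of 25 below (-0.33 to -0.08, and 0.01 with the 3′ to 5′ covariate). In the oxidative stress list GCLM, a subunit of glutathione synthesis, gave -2.02 (SE 0.97) and EPHX1, an epoxide hydrolase, 1.31 (SE 0.39). EPHX1 rose by 1.71 with stretch plus agents, from a median of 5.85 to 7.42, and its medians without agents were 6.12 and 6.37. The cardiac muscle, smooth muscle and erythrocyte markers had medians of -0.03, 0.08 and -0.06, with 0 members at an unadjusted p under 0.05 in limma.

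Few probe sets were called between tissue with and without agents. In static tissue 1 probe set was called (0.00417%), that of the kinase CDK16, which fell by 0.61 with the agents. CDK16 also had the smallest unadjusted interaction p of all, 5.24e-05, at 0.58, but was dim, with group means of 4.02, 3.16, 3.41 and 3.13, and the other CDK16 probe sets, which were brighter, gave -0.64 and -0.11. In stretched tissue 14 were called, and 3 of them had a symbol. Beside DCAF13 these were the carbonic anhydrase-related protein CA11, which was dim and rose by 1.28 with the agents, and a second, dimmer probe set of the ribosome factor NIP7, which fell by 0.46. This count was 1647 without stretched array 6 without agents, 822 without array 5 and 191 without array 4 of that group, 162 without stretched array 2 with agents, and 0 without stretched array 2 without agents or array 6 with agents. A replicate block left 1 call.

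Some stretch changes were bounded as alike with and without the agents. In 5492 probe sets both stretch changes were called in the same direction and over 1 log2, and in 2938 of these (53.5%) the change was the larger with the agents. For 768 of them (14%), 200 rises and 568 falls, the 95% interval of the interaction also lay within -1 to 1. In the remainder the interval reached beyond 1 log2, so neither likeness nor difference was shown. The share of 14% was lower than the 46.7% over all probe sets and the 24.5% over the well-expressed ones. A fall that ends near the lowest values on the arrays can meet the bound because no further difference can be read there. How many of the 568 falls end there was not tested. Of the 8 genes below, the interval passed 1 log2 when 1 array was left out in 24 of 24 cases for PLOD1, 22 for B2M, 18 for ADGRG1, 15 for GADD45A and 3 for JUN, and in 0 for CRIM1, SLC16A3 and SCAMP4.

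Of the rises, GADD45A, a DNA damage and stress gene, stood at 9.15, 9.41 and 9.69 in static and 11.54, 12.76 and 12.93 in stretched tissue without agents, and at 8.68, 9.46 and 9.81 and 10.97, 12.78 and 13.28 with agents. Static and stretched arrays were apart in both settings. GADD45A rose by 3.15 and by 3.11, an interaction of -0.04 with an interval of -0.97 to 0.88. JUN, an AP-1 subunit, rose by 2.22 and by 2.42, and CRIM1, a membrane protein that binds BMPs, by 2.14 and by 2.20. A probe set annotated to B2M, the light chain of MHC class I, rose by 2.60 and by 2.61. The brightest B2M probe sets did not share that rise, with means of 14.01 and 13.98 in static and stretched tissue without agents in one and 13.90 and 13.01 in another, so no direction is given for B2M.

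Of the falls, SLC16A3, the lactate exporter MCT4, stood at 8.49, 8.84 and 8.98 in static and 2.48, 2.56 and 2.83 in stretched tissue without agents, and at 8.49, 8.68 and 9.02 and 2.51, 2.58 and 2.62 with agents. SLC16A3 fell by 6.20 and by 6.15, with an interaction of 0.06 and an interval of -0.22 to 0.34. Its stretched values lay near the lowest on the arrays, where a further difference cannot be read, as did those of ADGRG1 (means of 2.66 and 2.64) and of the PLOD1 probe set chosen (2.82 and 2.10). The collagen lysyl hydroxylase PLOD1 fell by 3.69 and by 3.71 there, the secretory membrane protein SCAMP4 by 3.69 and by 3.64, and the adhesion receptor ADGRG1 by 3.48 and by 3.64. Their intervals lay between -0.99 and 0.95. A brighter PLOD1 probe set fell by 2.22 and by 2.41, with an interval of -1.09 to 0.72, and so was not bounded as alike.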

How the data were processed

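Deposited values were log2 intensities made by the authors from 24 single-colour porcine arrays; GCRMA and Partek are named in the submitters' processing notes, with no versions there. Values ran from 1.12 to 15.49 log2, and the number of arrays limits the precision. Symbols came from the platform annotation, and 9961 probe sets' Entrez IDs were found in the RefSeq table, with 0 symbols changed. The authors' deposited table, which holds folds and p-values of 4 pairwise comparisons and no interaction, was used only as a check: its folds and the group means differed by at most 6e-05 log2.

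A model with 4 group means was fitted with limma 3.58.1 in R 4.3.3 (lmFit, eBayes) over all 23999 probe sets, with Benjamini-Hochberg adjustment and a threshold of 0.05, and was tested on simulated data. Genes were named by a rule. It took, per direction, the 8 of smallest unadjusted p with 1 symbol and a highest group mean of at least 5, at most 4 genes from each list in order of p, 6 fixed serotonin and valve genes (COL1A1 had no probe set), and the 4 largest rises and falls bounded as alike. Other list members, second probe sets and genes called in a side comparison were named after their values were seen. The genes, lists and tests were chosen with earlier results of these data known. Replicate numbers came from the titles and were not used to pair arrays. No arrays were left out of the main values. No gene or protein sequences were used here.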

Additional observations from a re-analysis of the deposited data

Results flagged for a closer look

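In 13 of 144 groups of 6 arrays, 1 array stood apart from the others by Dixon's test at 95%, which chance alone does in about 1 in 20 groups. In static tissue without agents these were HTR2A in array 6 (3.24 log2, nearest other array 4.09), SLC6A4 in array 1 (3.03, nearest 2.77) and PLOD1 in array 5 (5.73, nearest 6.52). In static tissue with agents PLOD1 stood apart in array 2 (6.73, nearest 5.84). In stretched tissue without agents they were RBM48 in array 1 (9.57, nearest 8.64), GADD45A in array 6 (11.54, nearest 12.70), SLC16A3 in array 5 (2.83, nearest 2.60) and ADGRG1 in array 4 (2.25, nearest 2.68). In stretched tissue with agents they were SLC6A4 in array 5 (3.09, nearest 2.89), MAOA in array 2 (10.21, nearest 10.78) and SCAMP4 in array 2 (3.43, nearest 4.23). The 3′ to 5′ difference of GAPDH stood apart in stretched array 5 with agents (4.27, nearest 2.29), and that of ACTB in stretched array 1 with agents (8.14, nearest 9.95). The part of these arrays in the interaction was tested only by leaving each out in turn.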

How the results depend on the processing

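The count of 0 interaction calls was also 0 with the replicate block, with trended and robust moderation, without dim probe sets, after quantile normalization or median centring, with the 3′ to 5′ covariate, without moderation, and with separate weights for static and stretched arrays. It was 2174 with array weights, 1552 with array weights and the covariate, and 1397 with array weights and the replicate block. Without the 3 arrays whose 3′ to 5′ difference was widest it was 2, one of them CA11 (1.42 log2). Leaving out 1 array gave 0 to 2 calls, with 2 without stretched array 2 with agents and 1 each without stretched array 5 with agents and stretched arrays 4 and 5 without agents. With array weights, leaving out 1 array gave 35 to 3009, with 886 and 1087 among the lower counts. The count at an unadjusted p under 0.05 was 5334, 4821 and 5065 under the 3 weighted settings, and 1300 to 3117 with 1 array left out, with 3117 without stretched array 6 and 2742 without array 5, both without agents. The count of alike stretch changes was 1244 with array weights, 1480 with array weights and the block, 31 with bounds of -0.58 to 0.58, and 621 to 1226 with 1 array left out, the highest without stretched array 1 without agents. The calls between stretched tissue with and without agents, 14, numbered 0 to 3733 over the settings and 0 to 1647 with 1 array left out, and the 1 call in static tissue 0 to 28. The interaction of the 3′ to 5′ difference was -0.30 from ACTB alone and 0.10 to 0.69 with 1 array left out. HTR2B turned to 0.30, 0.26 and 0.07 under array weights, weights with covariate and weights with block. The interactions of 96 genes were recomputed, and of these all but HTR2B kept their direction; the remaining named genes were not recomputed. The causes of these shifts were not tested. The replicate block without weights left 0 interaction calls, changed the alike count to 1074 and the calls between stretched tissue with and without agents to 1. Of 36 pairs of equal number 17 correlated over 0.1 in their deviations (range -0.37 to 0.59), and 11 matched their own number best. Between the static groups 5 of 6 such pairs lay at 0.33 to 0.59 and between the stretched groups 4 of 6 were over 0.1, a hint from the data that some equal numbers share a source, which the labels do not state.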

Other observations

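Several further gene groups, some of them already named above, had single members at an unadjusted p under 0.05, and 0 members passed limma's adjusted test. Osteogenic and chondrogenic genes had a median interaction of 0.26 log2, with 12 of 17 above 0, among them PTH1R, a parathyroid hormone receptor, at 0.99 and SOX9, the cartilage transcription factor, at 0.71. Wnt and Notch genes had a median of 0.24, with 12 of 17 above 0, and the Notch target HES1 gave 1.00 and the Wnt inhibitor DKK3 0.62. In both lists 11.8% of members lay above 0 at an unadjusted p under 0.05, beside 6.99% of all symbols. YAP/TAZ and SRF targets had a median of 0.14 over 16 genes. With 1 array left out these medians ran from 0.08 (without stretched array 4 with agents) to 0.49 (without stretched array 5 without agents), from 0.12 (without stretched array 1 without agents) to 0.32, and from -0.02 (without stretched array 1 with agents) to 0.35 (without stretched array 5 with agents). Genes of G-protein, cyclic nucleotide and phospholipase C signalling, which lie downstream of serotonin receptors, had a median of 0.02 over 34 genes, 19 above and 15 below 0. The calcium channel ITPR3 gave 0.88 and the inhibitory subunits GNAI2 and GNAI1 gave 0.69 and 0.70. The lowest value of the list was that of AGTR1, described above, at -1.57.

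In metabolism, 4 of 45 oxidative phosphorylation genes (8.89%) lay above 0 at an unadjusted p under 0.05, near the 6.99% of all symbols. At that threshold 0 lay below. The 4 were NDUFS7 at 1.13 and NDUFV1 at 1.15 of complex I, COX7A1 at 1.02 of complex IV and ATP5D at 0.84 of the ATP synthase. Lysosome and autophagy genes had a median of 0.20 over 44 genes (0.03 without static array 2 without agents) and citric acid cycle and fatty acid oxidation genes 0.09 over 43 (-0.06 without that same array). Genes of p53 response and apoptosis had a median of -0.16, with 20 of 28 below 0, and the oxidative stress and xenobiotic list -0.14, with 24 of 38 below 0. Without stretched array 5 without agents these medians were -0.05 and -0.31. The chemokine CCL19 gave 1.94 and the interferon-induced IFI35 1.46.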
